A study of Mus musculus with 2 samples.

Results

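The CC and CXC chemokine genes, with *Cx3cl1*, were examined in cultured mouse brain pericytes (PCs) at passage 5 (PC5) and passage 20 (PC20). Members were taken by name, as every gene listed as *Ccl* or *Cxcl* followed by a digit and as *Cx3cl1*, which gave 43 gene identifiers under 38 symbols of 31053 genes. In 5 symbols (*Ccl19*, *Ccl21a*, *Ccl21b*, *Ccl21c* and *Ccl27*) there were 2 identifiers each. A UMI (a tag that counts 1 captured RNA molecule) was found for 29 of the 43, and 14 had 0 UMIs in both libraries.

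The PCs came from brains of female wild type C57BL/6N mice, 6 to 8 weeks old, pooled from 6 mice per isolation. They were obtained by passaging cells of digested brain, with no other cell type added and no stimulus named in the labels or methods. Each passage had 1 library, made with the 10x 3′ kit, and the methods name a separate isolation for each, so passage, isolation and library cannot be told apart. Cells were kept if over 1000 genes were detected and mitochondrial UMIs stayed under 20%, which left 9950 PC5 cells of 10629 barcodes and 4749 PC20 cells of 4884. They held 223054273 and 191122251 UMIs, with medians of 21700 and 33424 UMIs per cell. As PC20 cells had more UMIs, shares of cells were taken once 10500 UMIs had been drawn at random from each cell (thinning). Whether the extra UMIs came from deeper sequencing or from more RNA per cell was not tested. This left 8847 PC5 and 4474 PC20 cells, with 1103 and 275 cells too shallow. The libraries shared 20 barcodes, all of kept cells. All intervals are at the 95% level and cover counting error only.

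Chemokines are small secreted proteins that guide leukocytes along gradients, and they are grouped by the spacing of their first cysteines into CC, CXC and CX3C families. They act on G protein-coupled receptors, which leukocytes carry in distinct sets. Inflammatory members are switched on by NF-κB and interferon signalling, while homeostatic members such as *Cxcl12* are made without a stimulus, and PCs are known to make several of both kinds.

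The labelled cell type was checked against marker genes. Of 5 PC markers, 4 had a UMI in at least 1% of thinned PC5 cells and 2 did in PC20, with *Pdgfrb* at 44.6 against 5.43 UMIs per 1000000 (CPM). *Cspg4* (5.55 against 0.0994 CPM) and *Rgs5* (1.82 against 0 CPM) were also higher in PC5. *Anpep* was higher in PC20 (1.93 against 3.00 CPM), and *Abcc9* had 1 UMI in each library. All 4 fibroblast markers were higher in PC5 by more than 2-fold, with summed levels of 1302 against 101 CPM. Single markers of other types were also higher in PC5, namely *Tagln* of smooth muscle (219 against 0.230 CPM), *Kdr* of endothelium (12.8 against 0.0680 CPM) and *Aldh1l1* of astrocytes (7.35 against 0.0262 CPM). Summed over their lists of 3 markers each, smooth muscle was at 283 against 49.5 CPM, endothelium at 13.4 against 0.220, astrocytes at 151 against 229 and oligodendrocytes at 0.915 against 0.895. The 7 leukocyte and microglia markers summed to 2.17 CPM in PC5 and 4.54 CPM in PC20, most of it *Cd68*. *Cd48* had 0 UMIs in both, *Ptprc* had 1 in PC5, and *Csf1r* had 116 in PC5 against 3 in PC20. The part of these differences in the chemokine results was not tested.

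Chemokine transcripts were a larger share of all RNA in PC5 than in PC20. The 43 genes summed to 126541 UMIs in PC5, or 567 CPM (564 to 570.4), and to 43429 UMIs in PC20, or 227 CPM (225 to 229). A chemokine UMI was found in 83.7% of thinned PC5 cells (83.0 to 84.5) and in 55.4% of thinned PC20 cells (53.9 to 56.9). Without thinning, the shares were 91.4% and 81.7%. In PC5 the sum was made mostly of 2 genes, as *Ccl2* held 53.3% and *Ccl7* 28.1% of all chemokine UMIs. In PC20, *Cxcl10* held 34.2% and *Ccl5* 32.8%. Thus both cultures drew most of their chemokine RNA from a pair of genes, and the pairs were different ones. Without thinning, the gene with the most chemokine UMIs in a cell was *Ccl2* in 50.3% of the 9097 PC5 cells with any. In the 3880 such PC20 cells it was *Cxcl12* in 22.5%, *Ccl25* in 17.0%, *Ccl5* in 621 cells and *Cxcl10* in 12.9%. Thus no gene led in most PC20 cells. A cell in which genes tied was given to only 1 of them, and ties were not counted. The median kept cell had 6 chemokine UMIs in PC5 and 2 in PC20, so these shares may shift with the handling of ties.

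A gene was called on in a library when at least 1% of thinned cells had a UMI of it. In PC5, 14 chemokine genes were on and in PC20, 10, while 37.6% and 36.1% of all 31053 genes met the same rule. The 10 genes on in PC20 were also on in PC5, and 4 genes (*Ccl8*, *Ccl11*, *Ccl12* and *Cxcl16*) were on in PC5 alone. The share of all genes on in PC5 alone is not given, so whether this count stands out was not tested. The other 15 genes with a UMI were on in neither library. Nearest to the threshold, *Ccl5* in PC5 (1.03%, 0.829 to 1.26) and *Ccl7* in PC20 (1.05%, 0.773 to 1.40) lay just inside with intervals that reached below 1%. *Cxcl13* in PC5 (0.836%) and *Ccl17* in PC20 (0.626%) lay just outside. Neither library held a cell class known to lack chemokine RNA, so the share of cells that free RNA alone would mark was not measured.

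**Figure D1:**
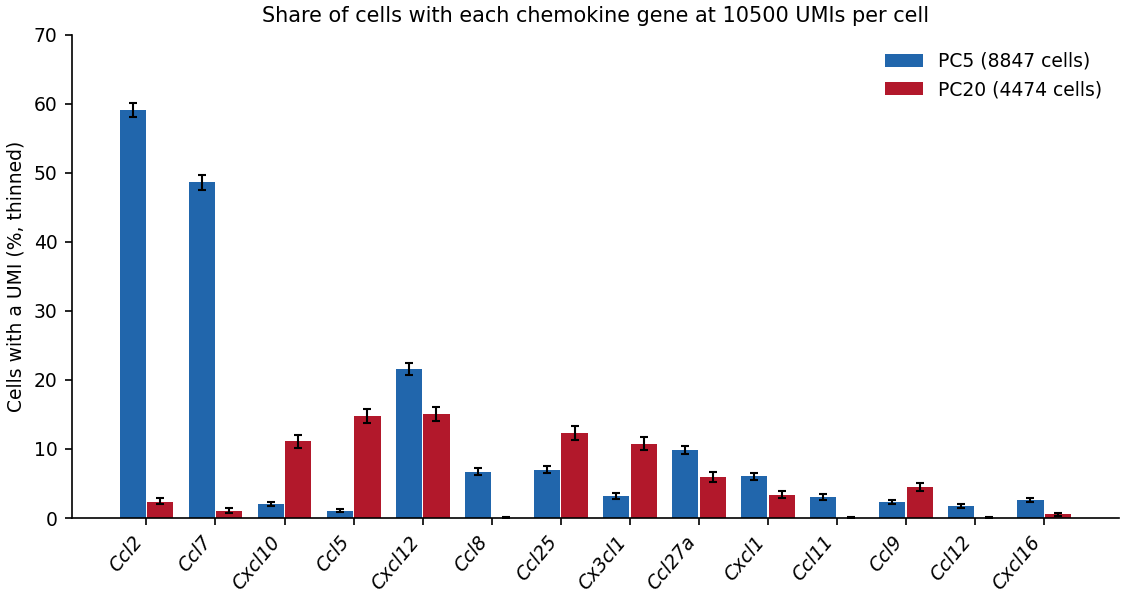
Share of thinned cells with a UMI (y axis, %) for each of the 14 chemokine genes that were on in either library, in 8847 PC5 cells (blue) and 4474 PC20 cells (red), with exact 95% intervals. *Ccl2* and *Ccl7* stand far above all others in PC5 (59.15% and 48.6%), while no gene passes 15.1% in PC20.

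Levels were compared for genes with a mean of at least 1 CPM over both libraries, which 14 chemokine genes and 11761 genes in all passed. The same 14 genes were on in PC5. Of these 14, 6 were higher in PC5 by more than 2-fold (*Ccl2*, *Ccl7*, *Ccl8*, *Ccl11*, *Ccl12* and *Cxcl16*), and 4 were higher in PC20 (*Cxcl10*, *Ccl5*, *Cx3cl1* and *Ccl9*). Among all tested genes, 20.3% were higher in PC5 and 18.5% in PC20 by the same rule. The other 4 chemokine genes (*Cxcl12*, *Ccl27a*, *Cxcl1* and *Ccl25*) differed by less than 2-fold. The median log2 ratio of PC5 over PC20 was 0.80 for the 14 genes and 0.02 for all tested genes. *Ccl8*, *Ccl11*, *Ccl12* and *Cxcl16* were under 1 CPM in PC20 and passed the filter only through their PC5 level. Each of the 4 genes higher in PC20 was above 1 CPM in both libraries. The count for PC5 and the median of the 14 genes thus rest in part on the filter, and no lean of the family is read from them. With 1 library per passage there is no test of the differences between libraries, and they describe the libraries.

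**Figure D2:**
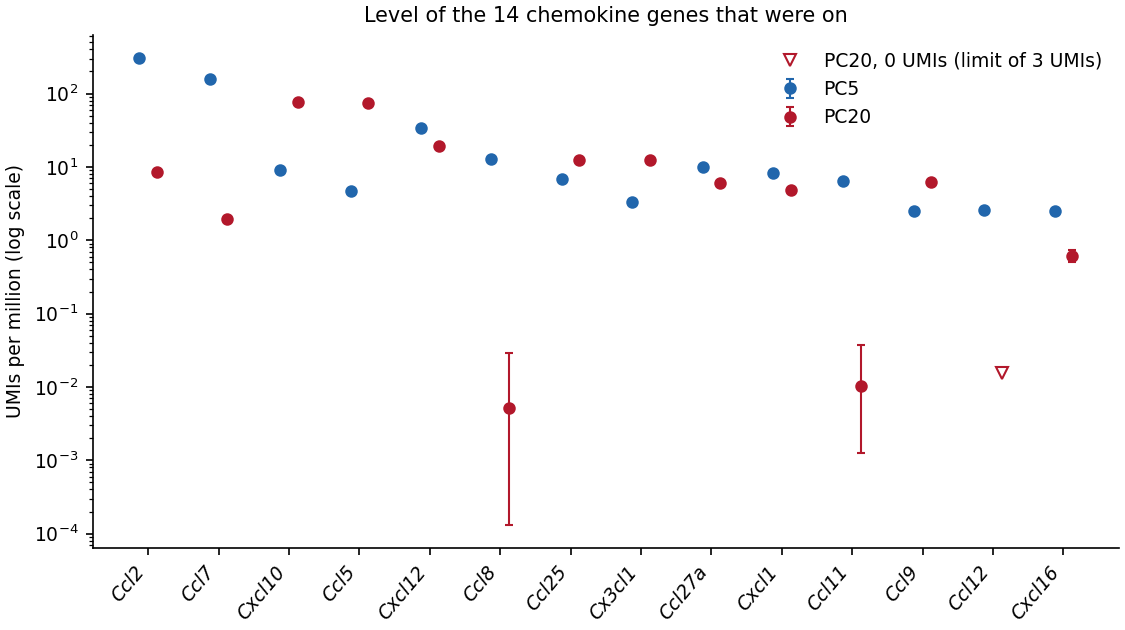
Level (y axis, CPM, log scale) of the 14 chemokine genes that were on, in PC5 (blue) and PC20 (red), with exact Poisson 95% intervals, most of which are smaller than the points. *Ccl8*, *Ccl11* and *Ccl12* have 1, 2 and 0 UMIs in PC20, the last drawn as an open triangle at the limit of 3 UMIs.

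The genes higher in PC5 were led by the monocyte chemoattractants of 1 locus. On chromosome 11, *Ccl2*, *Ccl7*, *Ccl11*, *Ccl12*, *Ccl8* and *Ccl1* lie within 270.1 kb (GRCm38, chr11:82035571-82305690), and the first 5 were on in PC5. *Ccl1* alone is annotated from 82176657 to 82305690 in GENCODE, and its RefSeq start lies 125878 bases from the GENCODE start. *Ccl2*, the main ligand of the monocyte receptor CCR2, had 67437 UMIs in PC5 (302 CPM) against 1639 (8.58 CPM) for PC20. The log2 ratio was 5.14 (5.07 to 5.21), a 35.3-fold difference, and was 4.18 in cells with no UMI of the cycling genes *Mki67* or *Top2a*. *Ccl7*, a related monocyte attractant, had 35606 UMIs (159.6 CPM) against 371 (1.94 CPM), with a log2 ratio of 6.36 (6.21 to 6.51). In both genes PC5 was the high library, and a minority of PC20 cells carried what was left.

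The share of cells moved with the level. *Ccl2* was seen in 59.15% of thinned PC5 cells (58.1 to 60.2) and 2.39% of thinned PC20 cells (1.96 to 2.88), and *Ccl7* in 48.6% and 1.05%. Among thinned PC5 cells with *Ccl2*, the median was 3 UMIs, the 90th percentile was 13 and the highest cell had 227, so the gene was widespread but uneven. In PC20 the 107 *Ccl2* cells had a median of 1 UMI, but 12 of them had 10 or more and the highest had 254. Without thinning, the top 1% of cells held 16.2% of all *Ccl2* UMIs in PC5 and 79.0% in PC20. *Ccl2* was therefore spread over the PC5 culture and concentrated in few cells of PC20.

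**Figure D3:**
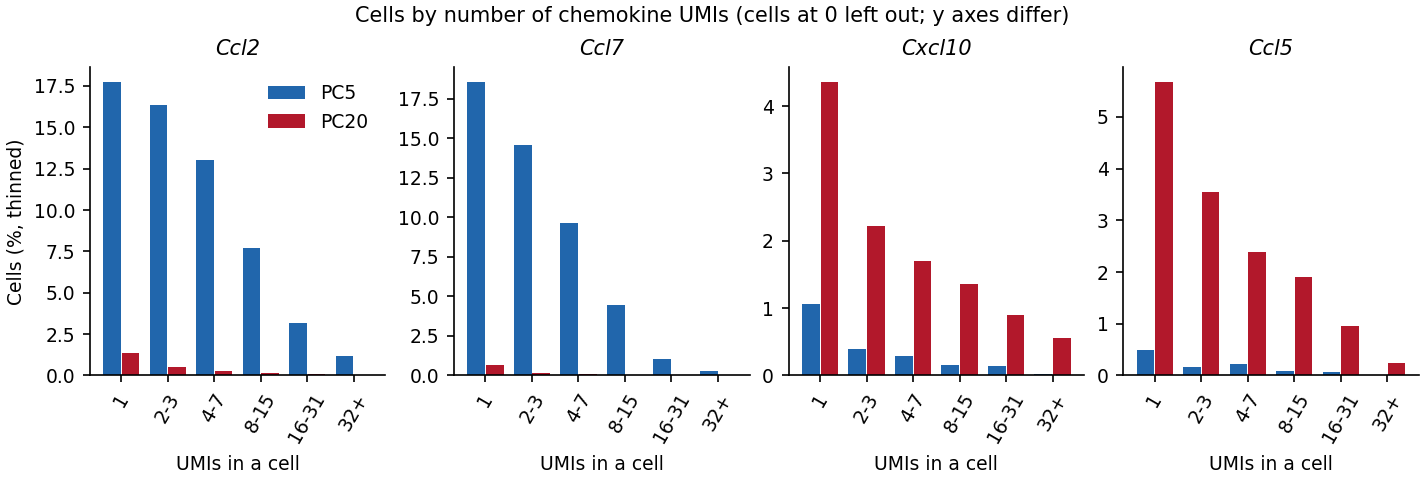
Share of thinned cells (y axis, %) by number of UMIs in a cell (x axis) for *Ccl2*, *Ccl7*, *Cxcl10* and *Ccl5*, in PC5 (blue) and PC20 (red), with cells at 0 UMIs left out and separate y axes. *Ccl2* and *Ccl7* bars are mostly blue and *Cxcl10* and *Ccl5* bars mostly red, and in each gene some cells reach 16 UMIs or more.

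*Ccl8*, *Ccl11* and *Ccl12* had at most 2 UMIs in the PC20 library. *Ccl8*, another monocyte attractant, had 2903 UMIs (13.0 CPM) in PC5 against 1, with a log2 ratio of 11.28 and a wide interval (8.80 to 16.58). *Ccl11*, which draws eosinophils through CCR3, had 1419 and 2 UMIs, a log2 ratio of 9.25 (7.39 to 12.29). *Ccl12*, a mouse monocyte attractant close to *Ccl2*, had 581 UMIs, all of them in PC5. Taken against a floor of 3 UMIs in place of 0, it was 166-fold higher in PC5, a log2 ratio of 7.37. The exact interval allowed a smaller difference, down to 7.07 on the log2 scale. In thinned PC5 cells *Ccl8* was found in 6.73%, *Ccl11* in 3.03% and *Ccl12* in 1.73%. The sixth gene of the locus, *Ccl1*, had a single UMI, in PC5. With so few PC20 UMIs these ratios moved with the cells counted, and the lowest over the alternatives were 9.44 for *Ccl8*, 6.90 for *Ccl11* and 5.43 for the bound of *Ccl12*. Several of these genes are close paralogs, so the split of reads between them rests on the mapping.

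Cells rich in 1 gene of the locus tended to hold the others. In PC5, *Ccl2* and *Ccl7* were found together in 3336 cells where 2544 were expected from the product of their shares, a ratio of 1.31 (1.28 to 1.35), and the Pearson *r* of log UMIs over 8847 cells was 0.56. Of cells with *Ccl2*, 63.7% (62.4 to 65.0) also had *Ccl7*, against 26.7% (25.3 to 28.2) of cells without it. All 10 pairs among the 5 genes had a ratio whose interval lay above 1. The ratios ran from 1.30 for *Ccl2* with *Ccl8* to 5.54 for *Ccl12* with *Ccl8* (57 cells, 10.3 expected, *r* = 0.29). A ratio cannot exceed 1 divided by the larger share, so pairs with the common *Ccl2* or *Ccl7* have a low ceiling. The ratios therefore do not rank the pairs by strength, and by *r* *Ccl2* with *Ccl7* (0.56) lay above *Ccl12* with *Ccl8*. At least 3 of the 5 genes were found in 590 PC5 cells (6.67%), where independent genes would give 3.38%, and all 5 in 14 cells. Such pairs were not particular to the locus. *Cxcl10*, on chromosome 5, had intervals above 1 with *Ccl2* (ratio 1.33), *Ccl7* (1.34), *Ccl8* (2.60), *Ccl11* (2.71) and *Ccl12* (4.74, 2.65 to 7.81). *Cxcl1* did with *Ccl2* (1.12), *Ccl7* (1.14) and *Ccl8* (1.61), while its intervals with *Ccl11* and *Ccl12* held 1. The cells and the droplets of a library are shared by all pairs, so these values are a description of 1 culture.

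The upstream 250 bases of *Ccl8* and *Ccl12*, the pair most often found together relative to their shares in PC5, are shown from RefSeq (GRCm38.p6) for comparison. Of the 38 symbols, 26 had an entry, among them 9 of the 14 that were on. *Ccl2*, *Ccl5*, *Ccl7*, *Ccl11* and *Cxcl16* had none. The motifs searched, on both strands, were TATAAA, a κB-like motif (GGGNNNTTCC), an interferon response element (GAAANNGAAA) and an AP-1 motif (TGANTCA). Capitals mark a match. Both sequences, at chr11:82114935-82115184 and chr11:82101595-82101844 on the plus strand, hold TATAAA close to the start, from base 32 and base 31 before it, and no other match. TATAAA is found in 12.4% of 32841 such windows.
Ccl8: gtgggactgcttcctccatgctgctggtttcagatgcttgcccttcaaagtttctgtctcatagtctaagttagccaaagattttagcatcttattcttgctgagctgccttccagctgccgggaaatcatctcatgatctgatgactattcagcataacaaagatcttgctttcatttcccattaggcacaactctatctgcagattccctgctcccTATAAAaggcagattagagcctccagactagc
Ccl12: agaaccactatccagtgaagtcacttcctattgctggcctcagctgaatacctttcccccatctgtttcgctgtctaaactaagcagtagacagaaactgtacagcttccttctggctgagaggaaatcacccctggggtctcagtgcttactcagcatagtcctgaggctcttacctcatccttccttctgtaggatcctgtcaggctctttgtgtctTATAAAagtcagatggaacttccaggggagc

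Within PC5, genes of the locus also differed by cell cycle and depth. A UMI of *Mki67* or *Top2a* marked 3125 thinned PC5 cells as cycling, and *Ccl7* was found in 44.0% of them (42.2 to 45.7) and in 51.2% of the other 5722 (49.8 to 52.5). *Ccl8* was found in 5.02% and 7.65%, and *Ccl11* in 1.86% and 3.67%, lower in cycling cells in each case. *Ccl2* differed little, with 59.0% and 59.2%. The part of depth in the split by cycling was not tested. With cells split by depth into 3 equal groups, the *Ccl7* level was 240.6 CPM in the shallowest PC5 cells, 185 CPM in the middle and 114 CPM in the deepest, and *Ccl2* went from 368 to 316 to 270.0 CPM. In the 679 PC5 barcodes that were left out, *Ccl2* was at 122 CPM (101 to 147) and *Ccl8* at 35.7 CPM (24.6 to 50.1).

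Over PC5 cells, *Ccl2* and *Ccl7* followed each other (*r* = 0.56) more closely than either followed any gene outside the chemokine family. Among 9143 genes that were no chemokine members and had a UMI in at least 5% of thinned cells, those with the highest *r* for *Ccl2* were *Igfbp4*, which binds insulin-like growth factors (0.34), *Gas7* (0.27), *Serpine2*, a protease inhibitor (0.26), *Apod*, a lipid carrier (0.25) and the transcription factor *Sox9* (0.24). For *Ccl7* they were the proteoglycan *Dcn* (0.32), *Apod* (0.31), *Tgfbi* (0.29), *Spp1* (0.29) and *Trf*, transferrin (0.27). The 99th percentile of *r* over these genes was 0.12 for *Ccl2* and 0.14 for *Ccl7*. *Dcn* is also 1 of the 4 fibroblast markers, at 51.3 against 0.167 CPM, and its part in the *Ccl7* difference was not tested. The *r* of *Ccl2* with 15 interferon targets ran from 0.02 for *Irf1* to 0.18 for *Ifit3*, which was in 43.2% of *Ccl2* cells and 33.2% of the others. With 19 genes of the NF-κB list it ran from -0.13 for *Vcam1* (44.0% against 53.2%) to 0.14 for *Lif* (24.6% against 17.7%). The ranges overlap, and the lists were not tested against each other.

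The genes higher in PC20 were led by *Cxcl10* and *Ccl5*, which recruit T cells. *Cxcl10* had 1993 UMIs (8.94 CPM) in PC5 against 14847 (77.7 CPM), with a log2 ratio of -3.12 (-3.19 to -3.05), or -2.25 in cells with no *Mki67* or *Top2a* UMI. *Ccl5* had 1057 (4.74 CPM) against 14262 (74.6 CPM), with a log2 ratio of -3.98 (-4.07 to -3.89). *Cxcl10* was found in 2.07% of thinned PC5 cells (1.78 to 2.39) and 11.1% of thinned PC20 cells (10.2 to 12.0), and *Ccl5* in 1.03% and 14.7% (13.7 to 15.8). *Cxcl10* lies within *Art3* on the opposite strand, and Cell Ranger counts the reads of this kit by strand. PC20 was high for both genes in level and in share, but most PC20 cells had neither. Of the 496 PC20 cells with *Cxcl10*, 100 had 10 or more UMIs and the highest had 123 after thinning, and the top 1% of cells held 51.4% of its UMIs. In PC5 the top 1% held 89.0% of *Cxcl10* UMIs and 94.8% of *Ccl5* UMIs. Without thinning only 2.68% and 1.56% of PC5 cells had a UMI of them, so these shares follow largely from rarity. Among thinned cells with *Ccl5* the median was 2 UMIs in both libraries, and the 90th percentile was 11 in PC5 and 14 in PC20. With *Cxcl10* the medians were 1 and 2 and the 90th percentiles 11 and 18.

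*Cxcl10* and *Ccl5* overlapped in PC20 cells. Both were found in 209 cells where 73.1 were expected, a ratio of 2.86 (2.49 to 3.26), with an *r* of 0.39 over 4474 cells. Of cells with *Cxcl10*, 42.1% (37.8 to 46.6) had *Ccl5*, against 11.3% (10.3 to 12.3) of cells without. The overlap was not particular to PC20. In PC5, *Cxcl10* and *Ccl5* were found together in 7 cells where 1.88 were expected. That ratio was 3.72, with an interval above 1, and the *r* was 0.17. *Ccl2*, *Ccl7* and the neutrophil attractant *Cxcl1* were rare in PC20 and were found with these genes and each other more often than expected. The 5 genes were grouped here because all 10 of their pairs had a ratio above 1 by their intervals, from 2.07 for *Cxcl1* with *Ccl5* to 19.6 (12.3 to 29.6) for *Ccl2* with *Ccl7*, the latter from 22 cells where 1.12 were expected. Pairs with *Ccl5* or *Cxcl10*, the commonest of the 5, have a lower ceiling on the ratio. Of the 107 PC20 cells with *Ccl2*, 44.9% also had *Ccl5* and 43.0% had *Cxcl10*. Most cells still held only 1 of the 5, as 818 of the 1094 with any did, while 70 held at least 3. Over all 45 pairs of the 10 genes on in PC20, 13 lay above 1, 1 below and 31 had intervals that held 1. In PC5, 29 of 91 pairs lay above, 1 below and 61 held 1.

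**Figure D4:**
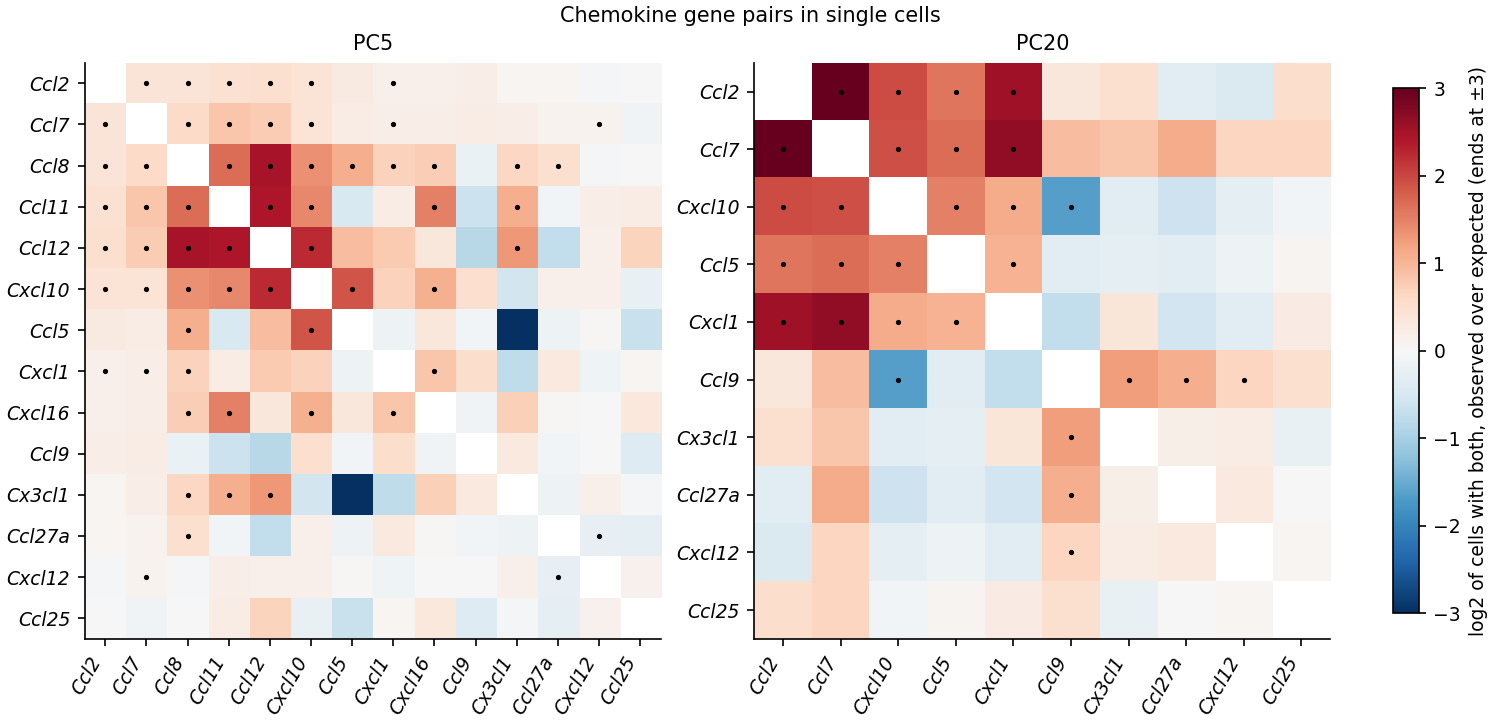
Cells with both genes of a pair, observed over expected from the 2 shares (colour, log2 scale that ends at ±3), for the 14 genes on in PC5 (left) and the 10 on in PC20 (right), with a dot where the exact binomial 95% interval leaves out a ratio of 1 and a pair found in 0 cells drawn at -3. *Ccl12*, *Ccl11* and *Ccl8* form the darkest block in PC5, and *Ccl2*, *Ccl7*, *Cxcl10*, *Ccl5* and *Cxcl1* form a red block in PC20 that leaves out *Ccl9*. Pairs with a common gene, such as *Ccl2* or *Ccl7* in PC5, have a lower ceiling on the ratio.

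The 3 other pairs above 1 in PC20 all held *Ccl9*, a ligand of CCR1. They were *Ccl9* with *Cx3cl1* (51 cells, ratio 2.38, 1.78 to 3.13), with *Ccl27a* (25 cells, ratio 2.12) and with *Cxcl12* (47 cells, ratio 1.57). The 1 pair below 1 was *Ccl9* with *Cxcl10*, in 7 cells where 22.1 were expected (ratio 0.317, 0.128 to 0.653). *Ccl9* shares a cluster of 5 genes (chr11:83525778-83664683, 138.9 kb) with *Ccl5*. The ratio of that pair was 0.785, with an interval of 0.498 to 1.18 that held 1. The *r* values of these pairs were between -0.04 and 0.11, too weak to rank cells by.

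*Cxcl10* and *Ccl5* were also compared with genes outside the family over PC20 cells. Among 8987 such genes, the highest *r* for *Cxcl10* was with the interferon-induced antiviral genes *Rsad2* (0.63), *Ifit1* (0.55), *Oasl1* (0.48) and *Ifit3* (0.41) and the transcription factor *Irf1* (0.40), where the 99th percentile was 0.10. For *Ccl5*, whose *r* with *Cxcl10* was 0.39, they were *Rsad2* (0.39), *Oasl1* (0.29) and *Ifit1* (0.23), the viral RNA sensor *Ifih1* (0.22) and *Zbp1* (0.22). *Rsad2* was found in 78.2% of PC20 cells with *Cxcl10* (74.3 to 81.8) and in 27.7% of cells without (26.3 to 29.1), and *Ifit1* in 72.0% and 29.3%. Over 15 interferon targets the *r* with *Cxcl10* ran from 0.06 for *Irf7* to 0.63 for *Rsad2*, and over 17 NF-κB genes from -0.04 for *Sod2* to 0.16 for the inhibitor *Nfkbia*, which was in 49.0% of cells with *Cxcl10* and 33.7% of cells without. *Cxcl10* cells had a lower median mitochondrial share (1.63% against 2.07%) and more UMIs before thinning (median 37931.5 against 34433.5). They were also more often cycling (73.2% against 56.0%), and the part of depth in this was not tested. Put the other way, *Cxcl10* was found in 14.0% of the 2590 cycling PC20 cells (12.7 to 15.4) and 7.06% of the other 1884 (5.94 to 8.31), and *Ccl5* in 15.8% and 13.3%.

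The 250 bases upstream of *Cxcl10* and *Cxcl1*, members of the PC20 group with a RefSeq entry, are shown for their motif matches, in capitals. *Cxcl10* (chr5:92348890-92349139, minus strand) holds an interferon response element from base 213 before the start, κB-like matches from bases 159 and 104 and an AP-1 match from base 74. *Cxcl1* (chr5:90890995-90891244, plus strand) holds a κB-like match from base 89 and a pair of overlapping ones from bases 71 and 70. The κB-like motif is found in 4.65%, the interferon element in 2.98% and the AP-1 motif in 6.75% of all 32841 windows. Of the 26 chemokine windows, 7 held the κB-like motif, 3 the interferon element and 3 the AP-1 motif. Among the 9 windows of genes that were on, these numbers were 3, 1 and 2. A match describes these letters and does not show that a factor was bound.
Cxcl10: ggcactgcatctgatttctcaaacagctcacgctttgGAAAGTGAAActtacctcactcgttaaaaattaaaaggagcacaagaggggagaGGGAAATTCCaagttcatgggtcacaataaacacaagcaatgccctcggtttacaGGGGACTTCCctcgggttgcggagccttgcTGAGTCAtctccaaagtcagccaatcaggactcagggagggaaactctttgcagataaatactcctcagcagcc
Cxcl1: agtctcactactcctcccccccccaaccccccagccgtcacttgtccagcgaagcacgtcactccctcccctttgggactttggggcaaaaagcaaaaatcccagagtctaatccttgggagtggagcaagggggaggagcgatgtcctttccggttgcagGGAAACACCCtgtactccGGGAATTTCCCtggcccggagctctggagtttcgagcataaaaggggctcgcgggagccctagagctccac

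The 4 genes within 2-fold were mostly chemokines known for homeostatic roles. *Cxcl12*, which holds progenitor cells and leukocytes in place through CXCR4, had 7458 UMIs (33.4 CPM) in PC5 against 3719 (19.5 CPM), with a log2 ratio of 0.78 (0.72 to 0.84). It was in 21.6% of thinned PC5 cells and 15.1% of thinned PC20 cells (14.0 to 16.1), where its interval overlapped that of *Ccl5*. Without thinning, *Ccl25* was in more PC20 cells (36.1%) than *Cxcl12* (32.1%). *Ccl27a*, a lymphocyte attractant known from skin, had log2 ratio 0.70 (9.90 and 6.09 CPM), and *Ccl25*, known from thymus and gut, -0.90 (6.75 and 12.6 CPM). *Cxcl1* had 0.81 (8.39 and 4.78 CPM). These 4 differed beyond counting error and by less than 2-fold. *Cxcl12* and *Ccl25* UMIs were spread out, as the top 1% of PC20 cells held 15.6% and 8.63% of them. Among genes outside the family with a UMI in at least 5% of thinned cells, the highest *r* with *Cxcl12* was low. It was 0.16 for *Bgn* in PC5 and 0.14 for *S100a6* in PC20. Of thinned cells with *Cxcl12*, 68.6% in PC5 and 76.6% in PC20 had 1 UMI, which limits *r*. These values therefore do not show that no gene followed *Cxcl12*.

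The membrane-bound chemokines went in opposite directions. *Cx3cl1*, a tethered ligand of microglial CX3CR1, had 748 UMIs (3.35 CPM) in PC5 against 2385 (12.5 CPM), with a log2 ratio of -1.90 (-2.02 to -1.78). It was found in 3.18% and 10.8% of thinned cells. In the 135 barcodes left out of PC20 its level was 130.4 CPM (83.5 to 194), above that of kept cells. *Cxcl16*, the ligand of CXCR6, had 555 UMIs (2.49 CPM) and 118 (0.617 CPM), a log2 ratio of 2.01 (1.72 to 2.31), and was found in 2.60% and 0.536%. *Ccl9* was higher in PC20, at 2.52 and 6.16 CPM (log2 ratio -1.29, -1.43 to -1.14), in 2.33% and 4.45% of cells.

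Members that were on in neither library were found in few cells. *Cxcl13*, a B cell attractant, had 257 UMIs in PC5 against 1, and *Cxcl14* had 119 against 5. The neutrophil attractant *Cxcl2* had 188 and 12 UMIs and *Cxcl5* 26 and 81. *Ccl17* had 16 and 147, *Ccl20* 6 and 84, *Ccl4* 3 and 54, and *Ccl28* 3 and 33. *Cxcl13* and *Cxcl2* leaned to PC5 and *Ccl17*, *Ccl20* and *Ccl4* to PC20. The 54 *Ccl4* UMIs came from 0.168% of PC20 cells, with 22 in a single one. *Cxcl9*, an interferon-gamma target beside *Cxcl10* on chromosome 5, had 2 and 6 UMIs, although *Cxcl10* was the most abundant chemokine of PC20. *Cxcl3*, *Ccl6*, *Ccl21a*, *Cxcl17*, *Cxcl15* and *Ccl1* had at most 7 UMIs in a library. The 14 identifiers at 0 were those of *Ccl3*, *Ccl22*, *Ccl24*, *Ccl26* and *Ccl27b*, both of *Ccl19*, *Ccl21b*, *Ccl21c* and *Ccl27*, and 1 of *Ccl21a*. In the 9950 PC5 cells, 0 cells with a UMI allows a share of cells with a UMI of up to 0.0371% by the exact interval, and in the 4749 PC20 cells 0.0776%. This does not limit the share that express a gene, and reads of genes with near-identical copies may not have been counted.

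Cells differed in how many chemokine genes they held. Thinned PC5 cells held 1.77 of the 43 genes on average and PC20 cells 0.838, with at most 8 and 6. If the genes were independent, 89.9% of PC5 cells and 58.8% of PC20 cells would have had at least 1, above the 83.7% and 55.4% seen. At the other end, 2.23% of PC5 cells had 5 or more, where 0.847% were expected, and 0.492% of PC20 cells, where 0.0547% were. Both cultures therefore had more cells with none and more with many than independent genes would give. The top 1% of cells held 13.0% of all chemokine UMIs in PC5 and 26.2% in PC20.

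**Figure D5:**
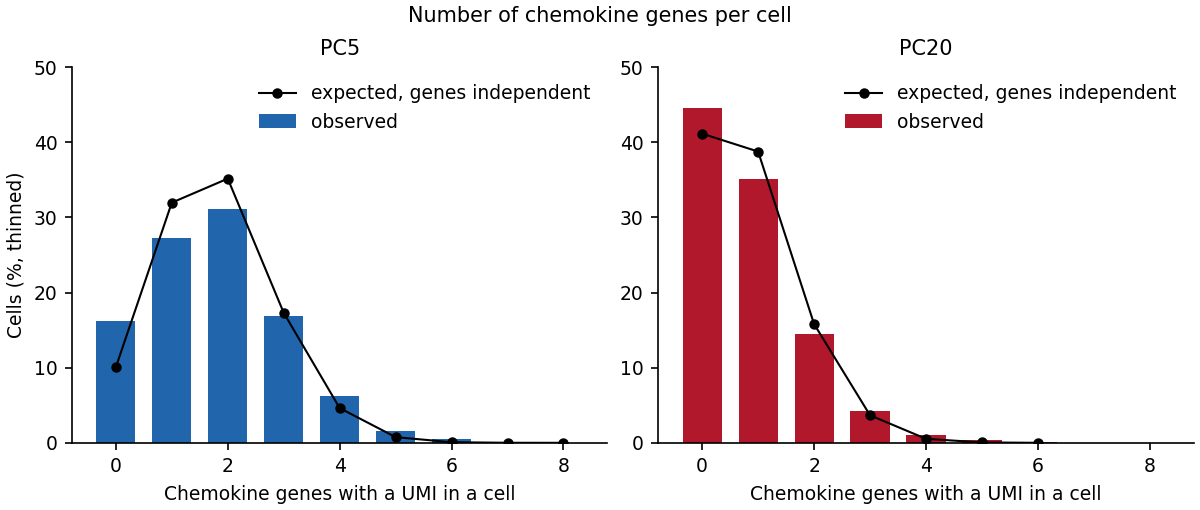
Share of thinned cells (y axis, %) by the number of chemokine genes with a UMI (x axis) in PC5 (left) and PC20 (right), with bars for the cells counted and black points for the share expected if genes were independent. Cells with 0 genes exceed the points in both (16.3% against 10.1% in PC5, 44.6% against 41.2% in PC20).

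Genes of the same pathway were read from lists. Of 23 chemokine receptors, *Cx3cr1* (3.52 and 0.780 CPM) and the scavenger of *Cxcl12*, *Ackr3* (5.86 and 5.33 CPM), were on in PC5 and only *Ackr3* was on in PC20. *Cxcr6* had 209 UMIs, all in PC5, and was in 0.961% of thinned PC5 cells. *Cxcr4* had 46 and 4 UMIs and *Ccr2* 1 and 0, both below 1% of thinned cells. The chemokines outside the naming rule, *Pf4*, *Ppbp* and *Xcl1*, were on in neither library. Of 6 cytokines that induce chemokines (*Tnf*, *Il1a*, *Il1b*, *Ifnb1*, *Ifng* and *Il17a*), 0 were on. *Ifnb1* had the most UMIs, with 21 from 5 PC5 cells and 22 from 7 PC20 cells, and *Tnf* had 1 and 0.

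Most listed NF-κB genes, interferon targets, sensors and immediate-early genes were on in both cultures. These lists hold targets of the pathways as well as regulators. Of 21 NF-κB subunits, inhibitors and targets, 19 were on in PC5 and 17 in PC20, while 37.6% and 36.1% of all genes were on. Of the 19 tested, 6 were higher in PC5 and 5 in PC20, where 20.3% and 18.5% of all tested genes were. *Icam1*, a leukocyte adhesion molecule, was at 19.3 and 1.10 CPM, and *Il6* at 6.24 and 0.330 CPM, both higher in PC5. Over PC5 cells their *r* with *Ccl2* was 0.002 and -0.0006. *Icam1* was in 17.0% of PC5 cells with *Ccl2* and 17.8% of the others, and *Il6* in 5.83% and 6.70%. *Nfkbia* (21.9 and 85.3 CPM) and *Csf1*, the macrophage growth factor (95.9 and 378 CPM), were high in PC20. All 15 interferon targets were on in both, 4 higher in PC5 and 5 in PC20. Both lists are short, and their counts were not tested against those shares. *Rsad2* (41.8 and 123 CPM) and *Irf7* (33.3 and 89.4 CPM) were higher in PC20 and *Gbp2* (43.5 and 3.36 CPM) and *Ifit1* (251 and 101 CPM) in PC5. Of 10 sensors, 5 of the 9 tested were higher in PC5 and 0 in PC20, with the interleukin 1 receptor *Il1r1* at 42.3 and 0.774 CPM and the RNA sensor *Tlr3* at 17.2 and 4.01 CPM. Of 8 immediate-early genes, all were on in both, with *Junb* higher in PC5 and *Atf3* in PC20 (2.57 and 30.8 CPM). The counts of sensors and immediate-early genes were likewise not tested against the shares of all genes given above.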

How the data were processed

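Each library was grouped by passage from its title. The authors deposited whole-number counts of UMIs per gene and barcode, made with Cell Ranger 5.0.1 on the mouse build mm10, with no normalization. From these, UMIs were summed over kept cells and given as CPM (UMIs per 1000000 of all UMIs). Log2 ratios carry exact conditional binomial intervals, levels exact Poisson intervals, and shares and co-detection exact Clopper-Pearson intervals. A library at 0 UMIs was set to 3 for a bound. The thinning depth was the 10th percentile of cell depth, rounded down to a multiple of 500. Pearson *r* used log(1 + UMIs) of thinned cells. Named genes were the members that were on, pathway genes from lists, and for the 3 members with the most UMIs in a library the 5 genes outside the family with the highest *r*. Members under 1% were also named, to account for every member, and cells split by a UMI of *Mki67* or *Top2a*. Calls of doublets were not made and no doublets were removed. PCR duplicates were collapsed by UMI. Gene positions came from GENCODE M21 (GRCm38). Scripts were tested on simulated data (Python 3.11.15, NumPy 2.4.6, SciPy 1.17.1, pandas 2.3.3). Members, lists and settings were chosen with earlier results of these data known.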

Additional observations from a re-analysis of the deposited data

How the results depend on the processing

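Of 97 log2 ratios recomputed for 14 genes under alternative scalings and cell filters, 0 changed sign, and *Ccl12* could not be given with each cell counted the same. The sizes were less stable for some genes. *Ccl2* ran from 4.18 to 5.16, *Ccl11* from 6.90 to 10.72 and *Cx3cl1* from -2.23 to -1.69, while *Ccl25* stayed between -0.90 and -0.86. No paired analysis was possible because each passage has 1 library. The number of genes on was 7 in PC5 and 6 in PC20 with a threshold of 5% of cells. With no filter on low values, 12 chemokine genes were higher in PC5 and 11 in PC20. The 12 include *Ccl1*, *Ccl21a* and *Cxcl3*, with 1, 4 and 7 UMIs in PC5 and 0 in PC20. With the floor of 3 UMIs in place of 0, none of these was past 2-fold. With a mean of at least 5 CPM, 3 were higher in PC5 and 3 in PC20. Shares of all genes under these settings are not given, so the counts have no background to be read against. When each cell counted the same, *Cxcl1* passed 2-fold (log2 ratio 1.00).

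Shares depended on depth. With no thinning, a chemokine UMI was in 91.4% of PC5 and 81.7% of PC20 cells, with 2.49 and 1.93 genes per cell, and at 5000 UMIs in 69.5% and 37.5%, with 1.21 and 0.501 genes. The summed chemokine level in PC5 and PC20 was 605 and 232 CPM in thinned cells, 674 and 206 CPM in cells with no *Mki67* or *Top2a* UMI, 616 and 231 CPM when each cell counted the same, 882 and 349 CPM when mitochondrial and ribosomal protein genes were left out of the total, and 589 and 233 CPM without the 5% of cells with the most UMIs.

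The ratio of *Ccl2* with *Ccl7* in PC5 was 1.49 and their *r* 0.49 at 5000 UMIs, and Spearman's rho was 0.51. For *Cxcl10* with *Ccl5* in PC20, *r* was 0.32 at 5000 UMIs, rho was 0.30, and cells with no *Mki67* or *Top2a* UMI gave a ratio of 2.44 and an *r* of 0.27. By Spearman's rho, 3 of the 5 genes named for *Ccl5* and 1 of the 5 for *Cxcl12* in PC5 were still among the first 5. One library per passage, and no cells that lack chemokines, limit what these values say of PCs in general.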
